A study of Homo sapiens with 14 samples.

Results

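Interferon-stimulated genes and the genes of MHC class I antigen presentation were followed through 14 RNA-seq libraries that span human pluripotent stem cells, pancreatic progenitors and insulin-expressing cells made from them. The set holds 41 of the 60624 gene identifiers in the expression tables. The genes were chosen by their known roles and by their transcript levels across the groups of these same libraries, without a threshold on any value, and all 41 symbols were found. They were split into 25 effectors, 6 sensors and transcription factors, and 10 genes of antigen presentation. Because the levels took part in the choice, counts over the set are descriptions beside the same share over all genes, and the adjusted p-values printed for single genes, from fits over all genes, are not independent evidence.

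All libraries came from 1 human embryonic stem cell line, MEL1, a line that carries GFP at the insulin locus according to the methods of the study. The first batch named by the labels held undifferentiated cells kept on CF1 mouse feeder cells (hPSC), definitive endoderm (DE), pancreatic progenitors of the PP2 stage and stem cell-derived β cells made without expansion (SC-β), with 1 library each. The second batch held expandable pancreatic progenitors (ePPs) at passage 9 (ePP-P9) and passage 21 (ePP-P21) and the β cells made from ePPs (ePP-β), with 2 libraries each. The ePPs were grown on feeder cells in a medium with EGF, bFGF, a TGFβ receptor inhibitor and 1 μM I-BET151. This compound blocks the bromodomains with which BET proteins bind acetylated histones. The third batch held pancreatic progenitors treated for 7 days with the solvent DMSO or with 1 μM I-BET151, with 2 libraries each. For its compound screen, the study first passaged progenitors in the ePP medium without I-BET151. Medium and passaging may therefore also differ between this batch and PP2. Every comparison across batches also compares the batches, and group and batch cannot be told apart there. The labels do not say whether replicates were separate cultures, so the p-values measure only the spread between these libraries, which may be technical.

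Values are TPM, the abundance of a gene's transcripts per length, scaled within each library. The 14 libraries summed to between 908685 and 985497 TPM, and between 14982 and 17578 genes reached 1 TPM. Read depth was not given with the TPM values. The labelled cell types were checked against marker genes. POU5F1 stood at 3401 TPM in hPSC, SOX17 at 1139.8 TPM in DE, PDX1 between 74.4 and 251 TPM in all PP2, ePP, DMSO and I-BET151 libraries, and INS at 10916 and 17374 TPM in ePP-β and 20658 TPM in SC-β. Of 6 β cell markers, 5 were more than 1 higher in ePP-β than in ePPs on the log2(TPM + 1) scale. The exception was IAPP, a peptide secreted with insulin, at 0.463 and 0.538 TPM in ePP-β. The study names IAPP among the β cell genes up-regulated there. Fibroblast and endothelial genes were present in some batch 1 libraries. COL1A1 stood at 310.2 TPM in PP2 and 896 TPM in SC-β, against 8.63 and 5.90 TPM in ePP-β, and CDH5 at 22.3 TPM in PP2. In such bulk samples, fewer cells of a type and less RNA per cell cannot be told apart.

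Interferons bind cell surface receptors whose kinases, JAK1 and TYK2, phosphorylate STAT2 among others. With IRF9 it enters a complex that binds the interferon-stimulated response element in the promoters of effector genes such as ISG15, the IFIT and IFITM families, the OAS enzymes and MX1. The RNA sensors RIG-I, encoded by DDX58, and MDA5, encoded by IFIH1, act upstream and are themselves induced by interferon. MHC class I molecules, made of a heavy chain such as HLA-B and the light chain B2M, carry peptides that the immunoproteasome cuts and the TAP1 and TAP2 transporter brings into the endoplasmic reticulum. In islets, high class I expression is known from type 1 diabetes.

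The promoters are shown first, since the response element is known from the promoters of effector genes. A RefSeq promoter window, running from 250 bases before to 50 bases after a transcript start on GRCh38.p14, was found for 32 of the 41 genes. The core of the element, taken as GAAA, any 2 bases and GAAA again, on either strand, occurred in 22 of these 32 genes, and in 4.38% of the 27305 genes with such a window. By role, it was found in 16 of 19 effectors, 1 of 5 sensors and factors, and 5 of 8 antigen presentation genes. The core of the gamma-activated site, TTCNNNGAA, occurred in 10 of the 32, against 9.38% of all genes. The following stretches of 30 bases, written 5′ to 3′ on the strand of the gene, show the element in 5 effectors, the sensor IFIH1 and 3 antigen presentation genes whose levels are described next, with the bases of each match in capitals. A match on the opposite strand reads as TTTC, 2 bases and TTTC, and overlapping matches run together.
IFI6, chr1:27672288-27672317, minus strand: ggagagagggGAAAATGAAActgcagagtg
ISG15, chr1:1013374-1013403, plus strand: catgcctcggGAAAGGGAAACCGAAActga
IFITM1, chr11:313990-314019, plus strand: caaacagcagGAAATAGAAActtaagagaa
OAS3, chr12:112938321-112938350, plus strand: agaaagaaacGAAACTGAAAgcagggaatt
BST2, chr19:17405741-17405770, minus strand: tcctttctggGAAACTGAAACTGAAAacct
IFIH1, chr2:162318686-162318715, minus strand: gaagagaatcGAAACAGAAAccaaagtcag
B2M, chr15:44711363-44711392, plus strand: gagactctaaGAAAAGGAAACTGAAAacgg
TAP1, chr6:32853819-32853848, minus strand: aggcggccgcTTTCGATTTCGCTTTCccct
TAPBP, chr6:33314079-33314108, minus strand: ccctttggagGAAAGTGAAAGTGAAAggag
ISG15, BST2, B2M, TAP1 and TAPBP each held 2 overlapping matches in these stretches. The 10 genes with a window and no match to the core were IFI35, OAS1, XAF1, STAT2, IRF1, IRF9, DDX58, HLA-B, HLA-C and PSMB9, and USP18, MX2, HLA-E, OASL, IRF7, IFITM2, IFIT2, OAS2 and NLRC5 had no window. A match is a description of the letters and not of binding.

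**Figure D1:**
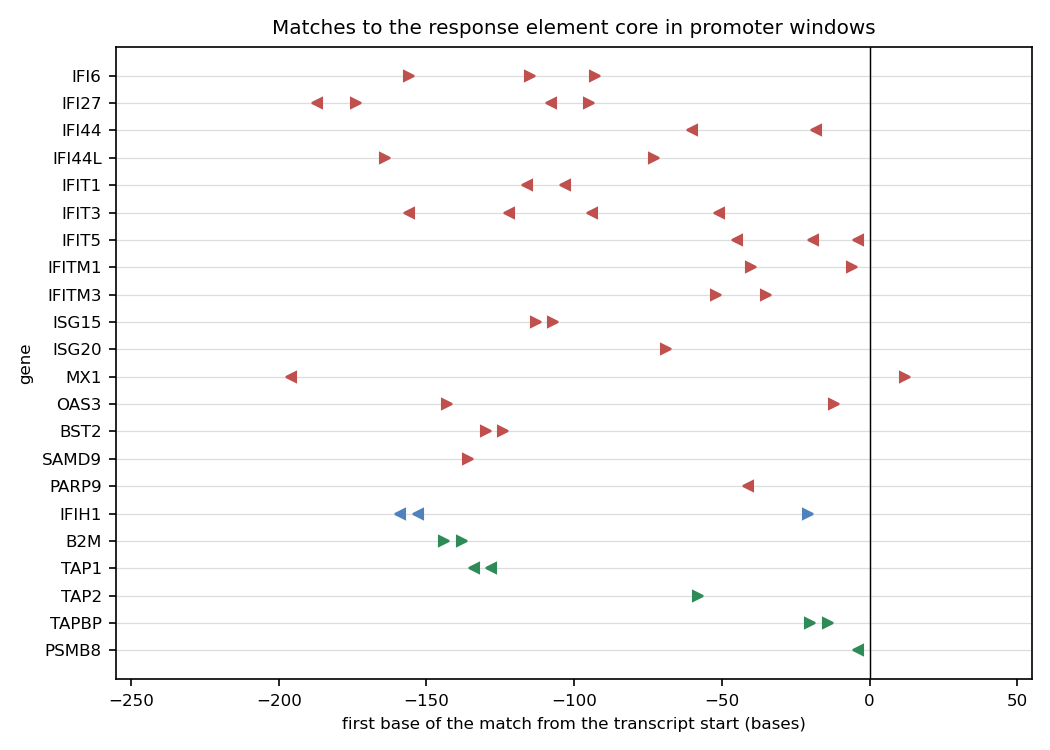
Position of each match to the core of the interferon-stimulated response element in the promoter windows of the 22 genes that hold one, in bases from the transcript start (line at 0), with genes with more than 1 start shown over all their windows. Arrowheads to the right mark the strand of the gene and to the left the opposite strand. Red stands for effectors, blue for the sensor IFIH1 and green for antigen presentation genes.

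Across the 9 groups, the insulin-expressing cells held the highest level of most genes, but not of most antigen presentation genes. By role, they were highest for 20 of 25 effectors, 5 of 6 sensors and factors and 5 of 10 antigen presentation genes. In that last list hPSC was highest for 5 of the 10. SC-β or ePP-β was the highest group for 30 of the 41 genes, hPSC for 9, DE for 1 (IFITM1) and PP2 for 1 (STAT2). Over the 20582 genes at 1 TPM or more in at least 2 libraries, the same groups were highest for 28%, 11.6%, 8.97% and 20.4%. An ePP group alone was lowest for 19 of the 41 genes, I-BET151 alone for 3, and SC-β or ePP-β for 0, against 15.2%, 3.6% and 29.5% of the 20582. Another 5 genes, IFI44, IFI44L, OAS2, OASL and XAF1, were listed at 0 in more than 1 group and so had no single lowest group. The summed level of the 41 genes ran from 490.1 to 539.6 TPM in the 4 ePP libraries and reached 3119.8 and 3084 TPM in ePP-β and 4810.2 TPM in SC-β. The number of genes at 1 TPM or more was 16 to 18 in ePP libraries, 20 and 23 in I-BET151, 30 in both DMSO libraries, and 36 to 39 in the insulin-expressing cells. Of the 20582 genes, 14938 to 15872 reached 1 TPM in ePP libraries and 16779 to 17313 in the insulin-expressing cells.

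**Figure D2:**
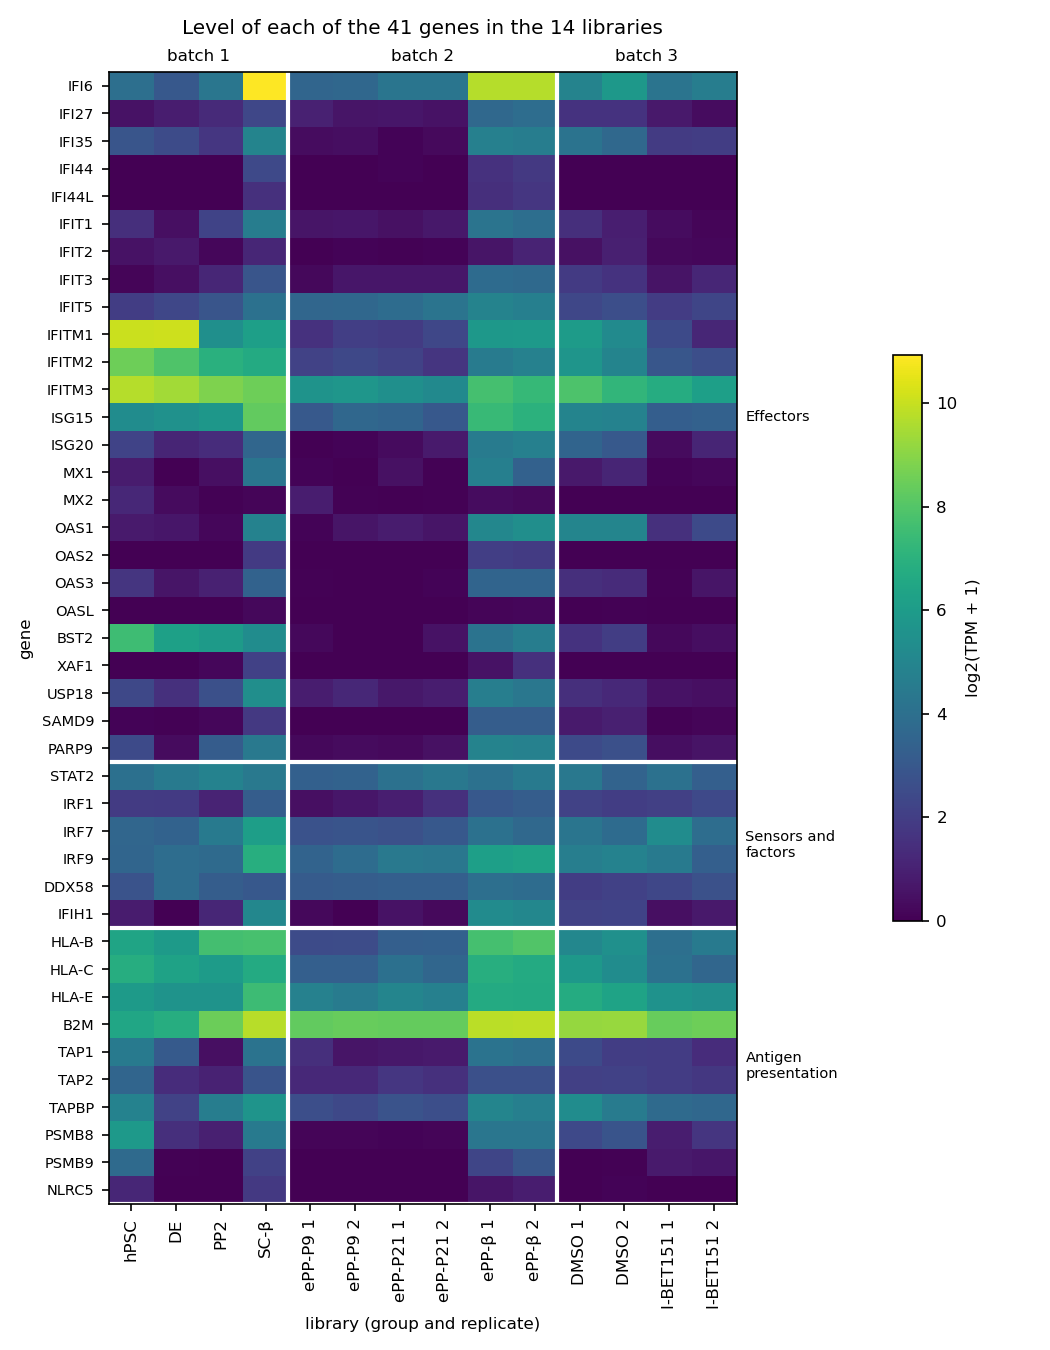
Level of each of the 41 genes (rows) in each of the 14 libraries (columns) as log2(TPM + 1), with white lines between batches and between the 3 gene groups. The ePP-β and SC-β columns are bright for most effectors, the 4 ePP columns are dark, and IFITM1 to IFITM3 and BST2 are bright in hPSC and DE.

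The first tested comparison asks how these genes differ between β cells made from ePPs and the ePPs themselves, within batch 2. The media listed for the β cell stages do not name I-BET151, which the ePP medium contains. The ePPs were grown on feeder cells, while the study handled ePP-β as clusters. Cell stage, medium, I-BET151 treatment and culture format therefore differ together between the groups and cannot be told apart. The presence of feeder cells may differ as well. On the log2(TPM + 1) scale, ePP-β was set against both passages of ePPs, each passage weighted equally, and a gene was called at an adjusted p under 0.05 and a log2 fold change beyond 1. Of the 41 genes, 36 reached 1 TPM in at least 2 of the 6 libraries and were tested, 33 were called higher and 0 lower, while limma called 17.9% of all 18076 genes tested higher and 9.86% lower. The 36 had a median log2 fold change of 3.19, and the median of all genes tested was -0.03. Of the 41 genes, 18 reached 1 TPM on the ePP-β side only, so passing the filter was not independent of the difference. The log2 difference was above 0 in all 41, including those under the filter. In 39 both ePP-β libraries lay above all 4 ePP libraries and in 0 below them, against 32.2% and 29.6% of genes at 1 TPM or more in at least 1 of the libraries, the exceptions being STAT2 and MX2. Of the 41, 3 reached 1 TPM on neither side, and such genes are left out of these shares.

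Among the effectors, 20 of 21 tested were called higher, with adjusted p from 9.78e-07 to 0.000382 in limma, against 17.9% of all genes tested. Of the 25 effectors, 15 reached 1 TPM on the ePP-β side only and 8 on both sides. Passing the filter was thus not independent of the difference, and the count is a description. IFI6, a mitochondrial protein that counters cell death and flavivirus replication, read 11.03, 11.5, 18.2 and 18.1 TPM in the 4 ePP libraries and 845 and 834 TPM in ePP-β. Its log2 fold change of 5.78 (SE 0.07) was the largest of the 41. ISG15, a ubiquitin-like protein joined to other proteins, read 7.22, 11.4, 10.5 and 6.96 TPM in ePPs and 167 and 131 TPM in ePP-β, a log2 fold change of 3.92 (SE 0.24). USP18, the protease that removes ISG15 and damps the receptor, went from 0.822, 1.29, 0.629 and 0.823 TPM to 24.98 and 19.1 TPM (log2 fold change 3.61). The groups did not overlap for any of these genes.

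The OAS enzymes make the oligoadenylate that activates RNase L. OAS1 read 0.0815, 0.545, 0.772 and 0.552 TPM in ePPs and 32.4 and 41.4 TPM in ePP-β, which on the log2 scale is a change of 4.68 (SE 0.22). OAS3 read 0.0467, 0.0158, 0.016 and 0.0669 TPM and then 10.5 and 10.5 TPM (3.48), and OAS2 was listed at 0 in all 4 ePP libraries and read 3.06 and 2.73 TPM in ePP-β. Their relative OASL did not reach the filter, at 0.0951 and 0.145 TPM in ePP-β. The 3 neighbouring OAS genes, which lie within chr12:112905856-113011723, thus differed in level within ePP-β, with OAS1 highest and OAS2 lowest in both libraries.

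The IFIT proteins bind viral RNA ends. IFIT1 read 0.518, 0.564, 0.398 and 0.635 TPM in ePPs and 17.5 and 14.5 TPM in ePP-β, and IFIT3 0.176, 0.572, 0.586 and 0.605 TPM and 13.3 and 12.2 TPM. On the log2 scale they rose by 3.47 and 3.23. Their neighbour IFIT5 already stood at 11.1, 11.5, 13.4 and 17.5 TPM in ePPs and at 28.6 and 25.5 TPM in ePP-β. Its log2 fold change of 0.99 (SE 0.14, adjusted p = 0.00152 in limma) lay just under the size that counts as a call, whereas IFIT2, at 0.534 and 1.12 TPM in ePP-β, was under the filter. The 4 IFIT genes lie together at chr10:89283694-89421605, where LIPA overlaps IFIT1, IFIT2 and IFIT3 on the opposite strand.

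The IFITM proteins block virus entry at membranes. IFITM1 read 1.96, 3.07, 2.70 and 3.97 TPM in ePPs and 55.3 and 59.3 TPM in ePP-β, IFITM2 3.45, 4.24, 3.47 and 2.21 TPM and 22.3 and 26.9 TPM, and IFITM3 47.9, 52.4, 42.5 and 36.01 TPM and 206 and 162 TPM. The log2 fold changes were 3.92, 2.57 and 2.02. The 3 genes are near-identical in parts and lie side by side at chr11:303655-329475, so the division of reads among them is uncertain. BST2, which tethers budding virus at the cell surface, read 0.192, 0, 0 and 0.454 TPM in ePPs and 17.1 and 23.5 TPM in ePP-β (log2 fold change 4.20).

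ISG20, an exonuclease acting on RNA, rose from 0.0179, 0.0856, 0.232 and 0.753 TPM to 22.2 and 26.5 TPM (log2 fold change 4.34). PARP9, an ADP-ribosyltransferase that works with DTX3L, rose from 0.163, 0.264, 0.215 and 0.418 TPM to 28.5 and 26.7 TPM (4.50), and overlaps DTX3L on the opposite strand. IFI35 rose from 0.287, 0.344, 0.0856 and 0.215 TPM to 26.1 and 24.1 TPM (4.41). In these genes the ePP libraries were all under 1 TPM. MX1, a GTPase that restricts influenza virus, differed between the ePP-β libraries, with 25.3 and 9.43 TPM against 0.0791, 0.0267, 0.418 and 0.0389 TPM in ePPs, and had the largest error of the effectors called (log2 fold change 3.87, SE 0.38). SAMD9, a restriction factor of poxviruses, read 0.0295, 0.0159, 0.0158 and 0 TPM and then 8.39 and 8.24 TPM, and IFI27 1.01, 0.537, 0.592 and 0.451 TPM and then 11.8 and 14.04 TPM. IFI44 and its neighbour IFI44L stayed low, at 1.91 and 2.56 TPM and 1.80 and 2.30 TPM in ePP-β, with IFI44 listed at 0 in 3 of the 4 ePP libraries (0.0912 TPM in ePP-P21 replicate 1) and IFI44L in all 4. XAF1 (0.436 and 1.83 TPM in ePP-β) and MX2 (0.270 and 0.220 TPM) did not reach the filter.

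Among the sensors and factors, 4 of 6 were called higher, against 17.9% of all genes tested, and 1 reached 1 TPM on the ePP-β side only. IFIH1 read 0.182, 0.0132, 0.433 and 0.23 TPM in ePPs and 38.2 and 32.5 TPM in ePP-β, a log2 fold change of 4.91 (SE 0.17). The other RNA sensor, DDX58, stood at 7.70, 8.27, 8.84 and 8.95 TPM in ePPs and 15.1 and 13.5 TPM in ePP-β, a log2 fold change of 0.69 (SE 0.12, adjusted p = 0.00406 in limma) that was below the size for a call. The sensors thus differed in level in ePPs, where DDX58 was above 7 TPM and IFIH1 below 0.5 TPM, and DDX58 overlaps another annotated gene on its strand. Among members called here, IRF9, TAP2, IFITM1 and IFITM2 also overlap a protein-coding gene on their strand. IFI6, IFIT3, HLA-B and PSMB9 overlap a non-coding gene or pseudogene there. Reads of all these genes may therefore mix with those of the overlapping gene. IRF9, the DNA-binding subunit of the response complex, rose from 10.2, 13.7, 20.3 and 19.02 TPM to 71.9 and 77.01 TPM (2.21, SE 0.13). Its partner STAT2 read 9.34, 9.99, 16.1 and 19.8 TPM and 16.1 and 21.3 TPM in overlapping groups (log2 fold change 0.46). IRF1, an interferon gamma-responsive factor, rose from 0.345, 0.601, 0.879 and 1.89 TPM to 7.08 and 8.29 TPM (2.23). IRF7, the factor that amplifies type I interferon genes, read 5.79, 6.13, 5.51 and 7.09 TPM and 15.8 and 11.9 TPM, and its call at 1.05 ended under median centring (0.91), quantile normalization (0.91), without ePP-P21 replicate 1 (0.97) or ePP-β replicate 1 (0.86), and in a fit over all 10 replicated libraries (adjusted p = 0.0585 in limma).

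All 9 antigen presentation genes tested were called higher, with adjusted p from 3.67e-06 to 0.00108 in limma, against 17.9% of all genes tested. Of the 10 genes on this list, 2 reached 1 TPM on the ePP-β side only. HLA-B read 4.60, 4.85, 9.03 and 9.32 TPM in ePPs and 210.5 and 247 TPM in ePP-β, a log2 fold change of 4.91 (SE 0.10). HLA-C read 8.98, 8.87, 15.7 and 11.1 TPM and 114 and 103 TPM (3.20), and the non-classical HLA-E 27.3, 22.3, 30.3 and 26.4 TPM and 103 and 97.9 TPM (1.89). The light chain B2M was abundant in ePPs, at 320.3, 333, 328 and 325 TPM, and reached 882 and 919.6 TPM in ePP-β (1.46, SE 0.06). The heavy chain HLA-B therefore differed more than the light chain it pairs with. HLA genes are polymorphic and alike in sequence, so the division of reads among them is uncertain.

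The peptide transporter subunits read 1.76, 0.526, 0.643 and 0.73 TPM in ePPs and 16.9 and 14.9 TPM in ePP-β for TAP1, and 1.42, 1.40, 2.35 and 1.82 TPM and 5.40 and 5.31 TPM for TAP2. TAP1 rose by 3.18 and TAP2 by 1.22 on the log2 scale, and under quantile normalization TAP2, at 0.84, was no longer called. TAPBP, the tapasin that joins class I to the transporter, rose from 5.16, 4.18, 6.02 and 5.11 TPM to 30.8 and 25.8 TPM (2.26). The inducible proteasome subunit PSMB8 read 0.11, 0.097, 0.0646 and 0.113 TPM in ePPs and 18.3 and 18.6 TPM in ePP-β (4.15), and PSMB9 0.0103, 0, 0 and 0.0253 TPM and 3.84 and 6.70 TPM (2.60). Both had been near 0. PSMB10, the remaining inducible subunit and not one of the 41, read 35.2, 28.9, 37.3 and 26.9 TPM and 26.2 and 27.7 TPM with overlapping groups, and the constitutive subunits PSMB5, PSMB6 and PSMB7 had log2 fold changes of 0.36, 0.47 and -0.07, all short of the size for a call. TAP2, PSMB8, PSMB9 and TAP1 lie together at chr6:32821833-32859851, and PSMB9 overlaps PSMB8 and TAP1 on the opposite strand, so without a stated use of strand their reads may mix. NLRC5, the transactivator of class I genes, stayed under the filter at 0.547 and 0.839 TPM in ePP-β.

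**Figure D3:**
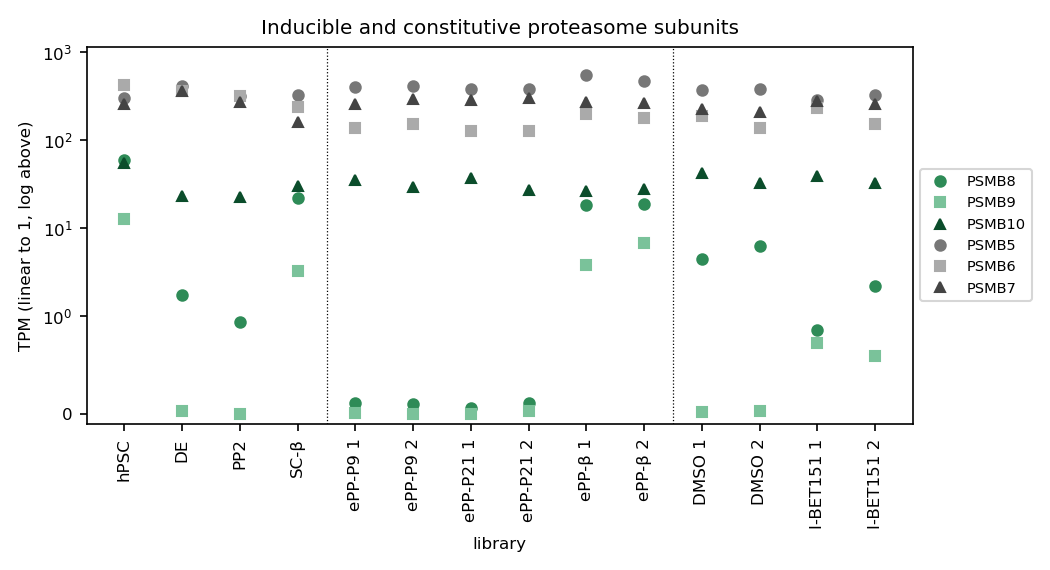
TPM of the inducible proteasome subunits PSMB8, PSMB9 and PSMB10 (green) and the constitutive subunits PSMB5, PSMB6 and PSMB7 (grey) in each library, on an axis that is linear to 1 and logarithmic above, with dotted lines between batches. PSMB8 and PSMB9 lie near 0 in the 4 ePP libraries and above 3 TPM in hPSC, SC-β and ePP-β, while the constitutive subunits stay at 127 TPM or more throughout.

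Other genes of the pathway were taken from lists that were also written with earlier results known. Of 27 further interferon-stimulated genes tested, 22 were called higher and 0 lower in ePP-β. Over all genes tested 17.9% were called higher and 9.86% lower, shares that also stand beside the lists below. Of the 30 genes on this list, 14 reached 1 TPM on the ePP-β side only and 14 on both sides. The count is therefore no independent support. LGALS3BP read 9.81, 10.3, 16.1 and 19.4 TPM in ePPs and 280.0 and 234 TPM in ePP-β (4.16), and PLSCR1 25.4, 26.99, 32.7 and 37.2 TPM and 73.9 and 72.3 TPM (1.25). None of the 9 interferon receptors and kinases was called, and their log2 fold changes ran from -0.08 to 0.54. Of 8 negative regulators 1 was called, SOCS3, which inhibits JAK kinases and was lower (6.48, 6.50, 4.01 and 7.57 TPM against 1.25 and 2.64 TPM). Of 7 sensing adaptors tested, IKBKE, TICAM1 and MYD88 were called higher. No interferon gene of the 9 looked up reached 1 TPM in any library, and IFNB1 was listed at 0 in all libraries except ePP-β replicate 2, at 0.103 TPM. Of 11 other class I genes tested 5 were called higher, and 4 of the 12 listed reached 1 TPM on the ePP-β side only.

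Markers of other cell types moved with this comparison. The summed level of 10 leukocyte markers was 17.5 to 21.8 TPM in ePPs and 215 and 223 TPM in ePP-β, where CD68, AIF1 and LYZ were called higher (63.5 and 68.9, 75.6 and 73.5 and 71.4 and 74.97 TPM). PTPRC, the pan-leukocyte antigen, was at or under 0.0138 TPM in all 14 libraries. The summed fibroblast markers were 1411 to 1789 TPM in ePPs and 510 and 551 TPM in ePP-β, mostly VIM. The part of other cells in the result was not tested. Leaving out ePP-β replicate 1 or 2 left 16 or 18 genes called higher, since only 20 then passed the filter in 2 libraries.

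**Figure D4:**
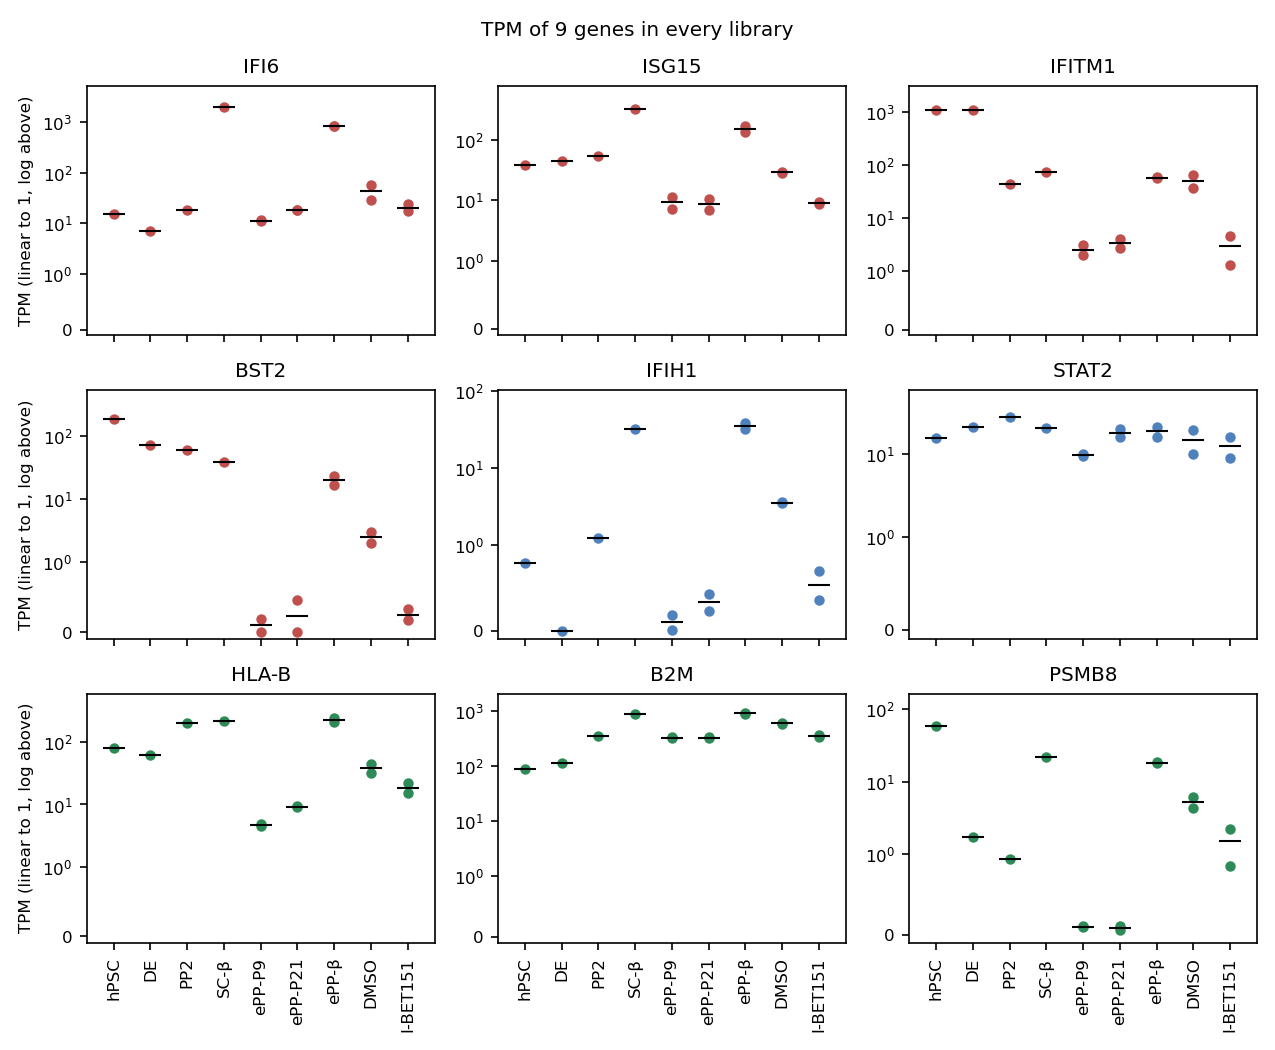
TPM of 9 genes in every library by group, on an axis that is linear to 1 and logarithmic above, with each point 1 library and each bar the group mean (groups of 1 or 2 libraries). Effectors are red, sensors and factors blue and antigen presentation genes green. IFI6, ISG15, IFIH1, HLA-B and PSMB8 are high in ePP-β and low in both ePP groups, while STAT2 lies between 9.00 and 27.9 TPM throughout.

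The second tested comparison asks how the genes differed after 7 days of 1 μM I-BET151 in pancreatic progenitors, within batch 3. None of the 41 genes was called in the main fit, which did not use the replicate number as a block. Of 29 tested, 0 were higher and 0 lower, while limma called 0.204% of all 16687 genes lower and 0.00599% higher. The study, using DESeq2 and the same thresholds, reported far more genes changed in each direction. The absence of calls therefore belongs to this fit. The members' levels were nevertheless mostly lower under I-BET151. The 29 had a median log2 fold change of -1.05 and all genes tested one of 0.16, and 19 of the 29 had an unadjusted p under 0.05 with a lower level, as had 8.98% of all genes tested, while 0 had one with a higher level, against 6.21%. Of all 41 genes, 33 had both I-BET151 libraries under both DMSO libraries and 2 (DDX58 and PSMB9) above them, against 19.1% and 28% of genes at 1 TPM or more in at least 1 library. Of the 41, 8 reached 1 TPM in DMSO only and 10 in neither group, while the shares leave out genes under 1 TPM in every library compared.

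IFITM1 read 62.9 and 37.1 TPM in DMSO and 4.46 and 1.29 TPM in I-BET151, the largest difference of the set (log2 fold change -3.80, SE 0.54, adjusted p = 0.0757 in limma). OAS1 read 30.4 and 30.1 TPM and 1.90 and 4.54 TPM (-2.96, SE 0.42, adjusted p = 0.0745 in limma). ISG20 read 10.5 and 7.37 TPM and 0.241 and 1.18 TPM (-2.58, SE 0.41, adjusted p = 0.085 in limma). These groups did not overlap, and the differences did not pass the adjusted threshold in the main fit. IFITM3 and IFI6, the other most abundant effectors, read 238 and 146 TPM and 28.9 and 56.2 TPM in DMSO and 107 and 70.6 TPM and 17.3 and 23.5 TPM in I-BET151. All 15 effectors tested had a negative log2 fold change, from -3.80 to -0.36. OAS1, at about 30 TPM in DMSO, stood far above its neighbours OAS3 (1.75 and 1.53 TPM) and OAS2 (0 and 0.014 TPM).

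The sensors and factors were divided. IFIH1 read 3.48 and 3.65 TPM in DMSO and 0.361 and 0.696 TPM in I-BET151 (-1.59), whereas DDX58 read 2.91 and 3.27 TPM and 4.05 and 5.57 TPM (0.50). IRF9 read 24.96 and 27.96 TPM and 22.1 and 8.96 TPM, and STAT2 19.6 and 10.1 TPM and 16.1 and 9.00 TPM. IRF7 read 18.3 and 13.2 TPM and 38.7 and 13.9 TPM, a log2 fold change of 0.56 (SE 0.55) that turned to -0.15 without I-BET151 replicate 1. STAT2, IRF1 and IRF7 overlapped between the groups.

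All 8 antigen presentation genes tested lay lower in I-BET151, from -1.75 for HLA-C to -0.23 for TAP2 on the log2 scale. B2M read 587 and 608 TPM in DMSO and 333 and 370.0 TPM in I-BET151, HLA-B 32.01 and 44.1 TPM and 15.1 and 21.8 TPM, and HLA-E 106 and 79.98 TPM and 46.8 and 40.9 TPM. The proteasome pair differed in direction, since PSMB8 read 4.41 and 6.21 TPM and 0.859 and 2.22 TPM and PSMB9, under the filter, 0.0156 and 0.0324 TPM and 0.73 and 0.592 TPM. No gene of these lists passed the test in the main fit.

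In a fit with the replicate number as a block, 16 members were called lower, with 1466 of all 16687 genes lower and 828 higher. Same-numbered DMSO and I-BET151 libraries deviated together over genes (r = 0.675), but no label ties a number to a culture. The number of members called lower thus depended on the model and the spread used. It was 17 when the spread was estimated from all 10 replicated libraries, and 1, 4, 7 and 8 without DMSO replicate 1, DMSO replicate 2, I-BET151 replicate 1 and I-BET151 replicate 2, fits in which the lone library is assumed to vary like the other group. Over all genes, the same fits called 1178 of 16687 lower with all 10 libraries and 100, 248, 611 and 751 lower in the order of the libraries left out. In the further lists of the pathway, the main fit called no gene. Tested were 22 other interferon-stimulated genes, 9 receptors and kinases, 7 sensing adaptors and 8 negative regulators. Their median log2 fold changes were -0.53, -0.37, -0.15 and 0.32. GBP2 read 8.09 and 6.85 TPM and 0.319 and 0.353 TPM. The class II gene HLA-DRB1 read 376 and 237 TPM in DMSO and 40.3 and 41.9 TPM in I-BET151.

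Markers of other cell types moved here as well. The summed leukocyte markers were 304 and 255 TPM in DMSO and 17.4 and 25.99 TPM in I-BET151, CD68 (122 and 106 TPM against 7.68 and 9.07 TPM) was called lower, and LYZ read 127 and 128 TPM against 6.77 and 13.5 TPM. PTPRC was at or under 0.0138 TPM. The fibroblast gene LUM was also called lower (16.2 and 14.2 TPM against 0.477 and 0.67 TPM), while the 10 fibroblast markers summed to 848 and 753 TPM in DMSO and 881 and 1272 TPM in I-BET151, mostly VIM (599.7 and 626 TPM against 788 and 1215 TPM). In addition, the progenitor factor NKX6-1 read 103 and 51.5 TPM against 446 and 208 TPM. The part of other cells in these differences was not tested.

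**Figure D5:**
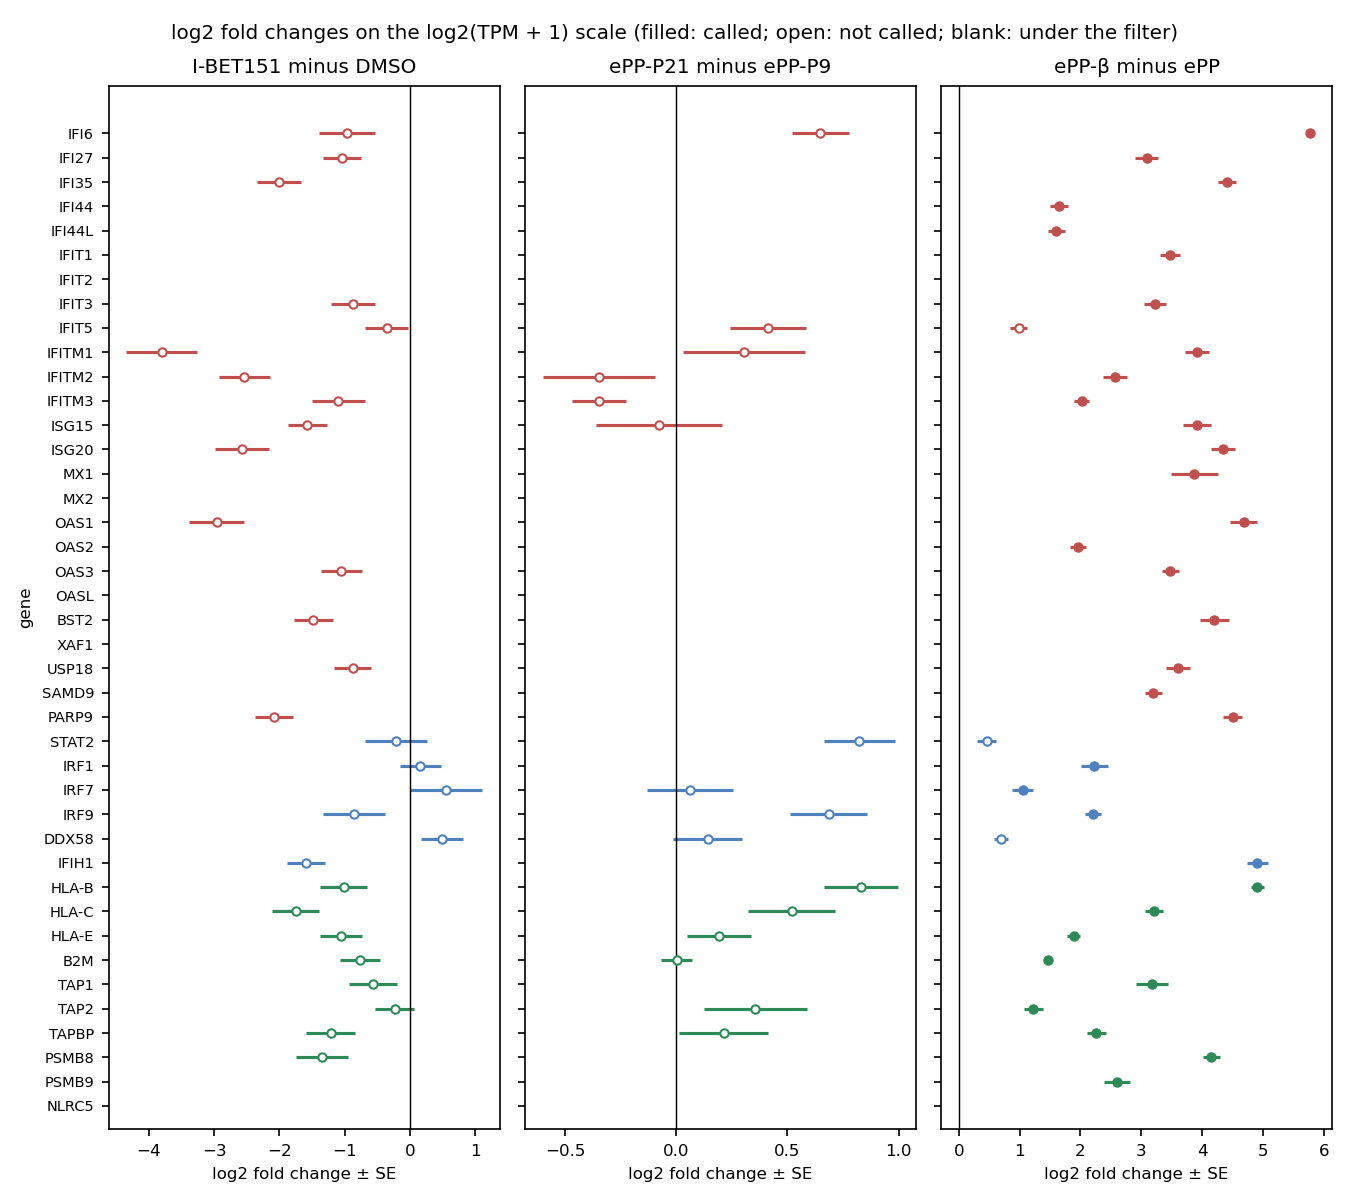
log2 fold change (horizontal, log2(TPM + 1) scale, bars ± SE from limma) of each gene tested in 3 comparisons, with 2 libraries a group and 4 ePP libraries in the right panel, and axes of different range. Red stands for effectors, blue for sensors and factors and green for antigen presentation genes, filled points were called and genes under the filter are left blank. The 33 filled points are all in the right panel, and 26 of the 29 points in the left panel lie below 0.

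The third tested comparison set passage 21 against passage 9 of the ePPs, within batch 2. Of the 41 genes, 16 reached 1 TPM in 2 libraries, and 0 were called in either direction, while limma called 1.07% of all 15822 genes tested higher and 0.0569% lower. HLA-B read 4.60 and 4.85 TPM at passage 9 and 9.03 and 9.32 TPM at passage 21 (log2 fold change 0.83, SE 0.17, adjusted p = 0.0754 in limma). STAT2 read 9.34 and 9.99 TPM and 16.1 and 19.8 TPM (0.82), and IRF9 10.2 and 13.7 TPM and 20.3 and 19.02 TPM (0.69). In each of these 3 genes both passage 21 libraries were above both passage 9 libraries, without passing the threshold. IFITM3 read 47.9 and 52.4 TPM and 42.5 and 36.01 TPM (-0.35). ISG15 overlapped between passages (-0.08), a sign that turned without ePP-P9 replicate 2 or ePP-P21 replicate 2. B2M, at 320 to 333 TPM in all 4 libraries, had a log2 fold change of 0.000244 (SE 0.07). Of all 41 genes, 13 had both passage 21 libraries above both passage 9 libraries and 3 below, against 40.6% and 12.7% of all genes at 1 TPM or more in a library. These are unlike sets, since 21 of the 41 reached 1 TPM in neither passage, and such genes are left out of the shares. The median of the 16 genes was 0.26 and that of all genes tested 0.13. Of the further lists, 14 other interferon-stimulated genes, 9 receptors and kinases, 5 sensing adaptors and 8 negative regulators were tested and none was called.

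The stages of direct differentiation had 1 library each, so their differences have no replicate check and are values only. Here and in the comparisons across batches, members under 1 TPM on both sides stay among the 41, while the shares leave such genes out. They numbered 12 from hPSC to DE, 12 from DE to PP2 and 2 from PP2 to SC-β. Between ePP-β and SC-β they numbered 2, between ePPs and PP2 13, and between DMSO and PP2 10. From hPSC to DE, 1 of the 41 genes was more than 1 higher and 11 more than 1 lower on the log2(TPM + 1) scale, against 10.8% and 16.1% of all genes at 1 TPM or more in either library. The IFITM genes and BST2 were high in both. IFITM1 stood at 1063 TPM in hPSC and 1093 TPM in DE, IFITM2 at 368 and 243 TPM, IFITM3 at 831 and 692 TPM and BST2 at 186 and 72.5 TPM. These effectors were thus abundant where IFIT1 (1.82 and 0.372 TPM), MX1 (0.789 and 0.0104 TPM) and OAS1 (0.721 and 0.591 TPM) were low. Peptide processing genes were lower in DE: PSMB8 read 59.8 TPM in hPSC and 1.76 TPM in DE, PSMB9 12.8 TPM and 0.0307 TPM, and TAPBP 27.5 TPM and 3.43 TPM.

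From DE to PP2, 9 genes were more than 1 higher and 3 more than 1 lower, against 27.2% and 9.83% of all genes. HLA-B went from 61.9 TPM to 202 TPM, B2M from 111 TPM to 355 TPM and IFITM1 from 1093 TPM to 43.3 TPM. The other heavy chains did not share the higher level of HLA-B in PP2, with HLA-C at 78.03 TPM in DE and 63.3 TPM in PP2 and HLA-E at 48.5 TPM and 48.6 TPM. TAP1 (0.36 TPM) and PSMB8 (0.94 TPM) were under 1 TPM in PP2. Of 10 fibroblast markers 9 were also more than 1 higher in PP2. The 9 and 3 became 5 and 7 under median centring or quantile normalization.

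From PP2 to SC-β, 29 of the 41 genes were more than 1 higher and 0 more than 1 lower, against 12.7% and 22.1% of all genes. Of the 41, 12 reached 1 TPM in SC-β only. IFI6 went from 18.4 TPM to 1961 TPM, ISG15 from 53.8 TPM to 314 TPM, and IFIH1 from 1.25 TPM to 32.5 TPM. PSMB8 went from 0.94 TPM to 21.95 TPM and TAP1 from 0.36 TPM to 16.97 TPM, while HLA-B was at 202 and 215 TPM. Of the 41 genes, 5 were lower in SC-β, among them DDX58 (8.45 and 7.02 TPM) and BST2 (60.4 and 39.1 TPM). The others were IFITM2 (120.3 and 101.1 TPM), IFITM3 (456 and 366 TPM) and STAT2 (27.9 and 20.6 TPM). The summed fibroblast markers were 1929 TPM in PP2 and 3028 TPM in SC-β, and the leukocyte markers 31.6 and 78.4 TPM. Of 10 fibroblast markers, 3 were more than 1 higher and 0 more than 1 lower. The counts were 3 and 1 of 10 leukocyte markers and 1 and 6 of 7 endothelial markers. The part of other cells was not tested.

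Set side by side, SC-β and ePP-β came from different batches and no test was made. Of the 41 genes, 3 were more than 1 higher in ePP-β and 7 more than 1 lower, against 18.5% and 17.4% of all genes, and the median difference over all 41 genes was -0.14. IFI6 stood at 845 and 834 TPM in ePP-β and 1961 TPM in SC-β, IRF7 at 15.8 and 11.9 TPM and 70.04 TPM, and OAS1 at 32.4 and 41.4 TPM and 27.6 TPM. B2M was 882 and 919.6 TPM in ePP-β and 880.3 TPM in SC-β. Of 10 fibroblast markers, 9 were more than 1 lower in ePP-β.

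Against PP2, ePPs had 0 genes more than 1 higher and 15 more than 1 lower, against 7.98% and 25.4% of all genes. IFITM3 read 456 TPM in PP2 and 47.9, 52.4, 42.5 and 36.01 TPM in ePPs, BST2 60.4 TPM and 0.192, 0, 0 and 0.454 TPM, and HLA-B 202 TPM and 4.60, 4.85, 9.03 and 9.32 TPM. B2M did not follow its heavy chain, at 355 TPM in PP2 and 320.3, 333, 328 and 325 TPM in ePPs. Markers of other cells moved with this comparison too, since 9 of 10 fibroblast markers (median -4.15) and 7 of 7 endothelial markers (median -2.19) were more than 1 lower in ePPs, and their part was not tested. DMSO-treated progenitors, set against PP2, had 9 genes more than 1 higher and 6 more than 1 lower, against 10.1% and 28.5% of all genes, with OAS1 at 0.153 TPM in PP2 and 30.4 and 30.1 TPM in DMSO and BST2 at 60.4 TPM and 2.06 and 2.99 TPM. Here 8 of 10 fibroblast and 6 of 7 endothelial markers were more than 1 lower in DMSO. Of 10 leukocyte markers, 3 were more than 1 higher in DMSO and 0 more than 1 lower. Their summed level was 31.6 TPM in PP2 and 304 and 255 TPM in DMSO, and the part of other cells was not tested.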

How the data were processed

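Total RNA of the MEL1-derived cells was sequenced by the study as paired ends on an Illumina HiSeq instrument. The authors aligned reads to GRCh38 (hg38) with HISAT2 2.1.0, assembled transcripts with StringTie and deposited TPM per Ensembl gene for each library; their annotation release, use of strand and treatment of reads from mouse feeder cells are not given in the sources used here. TPM keeps no read depth, so no counting error is given. Libraries were grouped by title and batch by description.

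Symbols were taken from GENCODE 44, which covered 60370 of the 60624 identifiers, and DDX58 was matched through its current symbol. The members and lists were chosen with earlier results of these data known. limma 3.58.1 (R 4.3.3) was fitted to log2(TPM + 1) of the compared groups, for genes at 1 TPM or more in at least 2 of their libraries, without a replicate block, two-sided, with Benjamini-Hochberg adjustment over all genes tested. The pseudocount understates the change of low genes. Where a group had 1 library, or batches differed, differences of log2(TPM + 1) were counted past 1 and not tested. Values in every library of a comparison are given for members called in it, for the 3 members of each list with the highest mean TPM and for the 3 members per direction with the largest fold change at a mean of 5 TPM or more; other lists were described by counts. Each choice was varied in turn: pseudocounts of 0.1 and 0.01, the filter (none, or 5 TPM), median centring, quantile normalization, a replicate block, 1 fit of all 10 replicated libraries and leaving out each library. The limma fit was tested on simulated data with the same normal noise for every gene and large changes placed only in well-expressed genes. That test does not cover genes of low level or replicates that deviate together. Sequences are RefSeq windows of GRCh38.p14, read from coordinates of that build.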

Additional observations from a re-analysis of the deposited data

How the results depend on the processing

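Members called lower in I-BET151 against DMSO numbered 0 as reported, 1 under quantile normalization, 17 in the fit of all 10 replicated libraries, and 1 to 8 when a library was left out. Members called higher in ePP-β numbered 33, and 16 to 18 when an ePP-β library was left out, because 20 then passed the filter. Of the untested counts, members lower in DE than hPSC were 6 at a filter of 5 TPM (11 as reported), members higher and lower in PP2 than DE were 5 and 7 under median centring and under quantile normalization (9 and 3), members higher in ePPs than PP2 were 2 at either smaller pseudocount and 1 under either scaling (0), and members lower in DMSO than PP2 were 3 under median centring (6). IRF7 (I-BET151 against DMSO) (0.56 as reported) ran from -0.15 without I-BET151 replicate 1 to 1.26 without I-BET151 replicate 2, and ISG15 (passage 21 against 9) ran from -0.38 without ePP-P9 replicate 1 to 0.22 without ePP-P9 replicate 2, with 0.19 without ePP-P21 replicate 2. Beyond these, the cause was not tested. Counts over all genes moved more: in I-BET151 against DMSO, 1 higher and 34 lower became 0 and 0 at smaller pseudocounts or without a filter, 119 lower under median centring, 3 and 135 under quantile normalization and 541 and 1178 in the fit of all 10 libraries. In passage 21 against 9, 169 and 9 became 0 and 0 without a filter or under median centring, 10 and 3 under quantile normalization and 0 and 1 in the fit of all 10 libraries. Leaving out 1 library gave 7 to 283 higher and 100 to 751 lower in the former and 0 to 453 higher and 0 to 25 lower in the latter. In ePP-β against ePPs, 3237 higher became 1765 and 1623 without ePP-β replicate 1 and 2, and 5276, with 5105 lower, at an adjusted p (limma) under 0.05 alone. There 3237 higher also became 2058 at a filter of 5 TPM, and 1783 lower became 2866 under quantile normalization.

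A fit with the replicate number as a block called 16 members lower in I-BET151 against DMSO, with 828 genes higher and 1466 lower over all genes, and 64 and 2 in passage 21 against 9. Deviations of same-numbered DMSO and I-BET151 libraries correlated over genes (r = 0.675), but with only 2 libraries a group, and no label that ties a number to a culture, the numbers were not taken as pairs; ePP and ePP-β numbers gave r between -0.0093 and 0.0439. The block moved no count of members in the other comparisons by over 1.5 times.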
